A study of Mus musculus with 6 samples.

Results

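The troponin genes encode the calcium switch of striated muscle, and 8 of them were taken by their gene symbols from the 17891 named genes of the deposited tables. They are the troponin T genes Tnnt1, Tnnt2 and Tnnt3, the troponin I genes Tnni1, Tnni2 and Tnni3, and the troponin C genes Tnnc1 and Tnnc2. In adult muscle Tnnt2 and Tnni3 serve the heart, Tnnc1 serves both the heart and slow skeletal fibres, Tnnt1 and Tnni1 serve slow skeletal fibres, and Tnnt3, Tnni2 and Tnnc2 serve fast skeletal fibres. For this comparison Tnnt2, Tnni3 and Tnnc1 are the 3 cardiac genes and the other 5 are the skeletal genes. All 8 were listed in at least 4 of the 6 samples, and they held 21 of the 25349 listed transcripts.

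RNA was sequenced from 3 NS-DADm and 3 WT samples of myocardium, the muscle of the heart, at an age of 6 weeks. NS-DADm mice carry whole-body knock-in mutations of the DADs, the deacetylase activating domains, in both NCOR and SMRT, corepressors that activate the histone deacetylase HDAC3 through these domains. WT mice were wild type, and both groups had the C57BL/6 strain background. Total expected counts were 12262523 to 12758311 in the NS-DADm samples and 10183792 to 11205221 in the WT samples, so each NS-DADm library was deeper. The mutations lie in every cell of the body and the tissue was measured in bulk, so a difference can come from any cell type of the sample. The mutated domains could not be checked from counts per gene. Whether the 3 samples of a group were 3 different animals is not stated in the labels, so p-values refer to sample-to-sample spread, which may be technical.

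In each troponin complex, troponin C binds calcium, troponin I holds the complex on actin and blocks myosin at rest, and troponin T ties the complex to tropomyosin. Around birth the heart exchanges slow skeletal troponin I for the cardiac form, and embryonic splice forms of cardiac troponin T give way to adult ones. Cardiac troponin I also carries an additional amino-terminal stretch, absent from the skeletal forms, that protein kinase A phosphorylates.

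The cardiac genes shared only short stretches of identical sequence with their skeletal relatives, and similarity with mismatches was not measured. The longest stretch of identical bases between a cardiac gene's transcripts and a skeletal relative's was 21 bases in troponin I and in troponin C, shown here because a read inside such a stretch could belong to either gene (GENCODE M21 transcripts).
Tnni3 and Tnni1: tggcatggaaggccgcaagaa
Tnnc1 and Tnnc2: tgagttcaaggctgcctttga
The corresponding stretches were 15 bases between Tnnt2 and Tnnt1, 17 bases between Tnnt2 and Tnnt3 and 14 bases between Tnni3 and Tnni2.

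All 3 cardiac genes stood among the most abundant transcripts of the heart, and the skeletal genes lay far below them in both genotypes. Levels are given in FPKM, the count of a gene scaled by its length and by the reads of its library, so that genes of different length can be set side by side. By FPKM, Tnnt2 ranked between 4 and 7 among all genes of a sample, Tnni3 between 4 and 6, and Tnnc1 between 11 and 16. Tnnt1, the slow skeletal troponin T, ranked between 3595 and 4223. The 8 genes together took 3.41%, 3.18% and 3.01% of all FPKM in NS-DADm 1, 2 and 3, against 3.44%, 3.61% and 3.39% in WT 1, 2 and 3. The 5 skeletal genes summed to 19.95, 17.2 and 16.2 FPKM in the NS-DADm samples and to 17.8, 19.0 and 21.2 FPKM in the WT samples, and these sums overlapped.

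**Figure D1:**
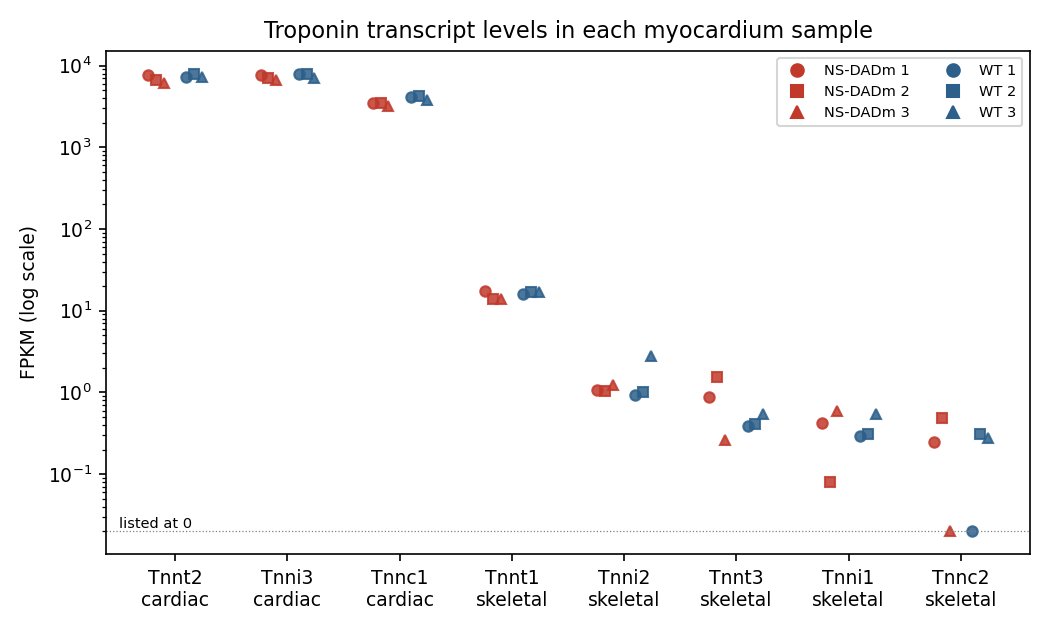
FPKM of the 8 troponin genes on a log axis, 1 marker per sample, with NS-DADm in red and WT in blue. Markers on the dotted line are samples in which Tnnc2 was not listed and was taken as 0; the 3 cardiac genes lie at 3222 FPKM or more in every sample and the skeletal genes at 17.3 FPKM or less.

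No troponin gene changed between the genotypes at the 0.05 threshold on the adjusted p (edgeR quasi-likelihood test, Benjamini-Hochberg adjustment over all tested genes). The test covered 13130 genes, of which 420 changed, 3.2% of those tested, with 1.79% higher and 1.41% lower in NS-DADm. The low-count filter kept 4 of the 8 members, Tnnt2, Tnni3, Tnnc1 and Tnnt1, and of these 0 were called. At an unadjusted p below 0.05 there were 2370 genes, or 18.1% of all those tested, and Tnnc1 was the 1 member among them. Tnnc1 was also the 1 member that DESeq2 called, and limma on log2 FPKM called 0. Over all genes tested, DESeq2 called 4.25% and limma 2.07% and 2.03%, with 1 and 0.1 added to the FPKM. Tnnt3, Tnni1, Tnni2 and Tnnc2 fell below the filter, and their values are given without that test.

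Tnnc1, the calcium-binding subunit of cardiac and slow skeletal muscle, was the member with the smallest p. It was measured at 3450, 3473 and 3222 FPKM in NS-DADm 1, 2 and 3, against 4148, 4198 and 3780 FPKM in WT 1, 2 and 3. The highest NS-DADm sample lay below the lowest WT sample, so the groups did not overlap. Separation of this kind was common: it held for 23.4% of the genes in the fit, and for 14.5% with NS-DADm lower. The means were 3382 ± 139 FPKM in NS-DADm and 4042 ± 228 FPKM in WT (SD, n = 3 each). The log2 fold change of Tnnc1 was -0.23 (SE 0.0689, 95% interval -0.38 to -0.07), a level 0.855 times that of WT, with an unadjusted p of 0.00807 and an adjusted p of 0.113 (edgeR). In bulk tissue, fewer cells of a type and less RNA per cell cannot be told apart.

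The direction of Tnnc1 was lower in NS-DADm in 14 of 14 alternative fits, with log2 fold changes of -0.27 to -0.18. It passed the threshold in 2 of the 14, 1 of them DESeq2, with an adjusted p of 0.0371. Transcripts of the atrium differed between libraries and were abundant in NS-DADm 1, NS-DADm 3 and WT 3. The summed level of 11 atrial markers was 3900, 638 and 6752 FPKM in NS-DADm 1, 2 and 3 and 609, 348 and 4855 FPKM in WT 1, 2 and 3. Of these 11 markers, Bmp10 was not listed in NS-DADm 2, WT 1 and WT 2. Nppa, Myl4, Myl7 and Sln carried most of the sum, and not every marker followed it: Kcnj5 was 16.8, 12.6 and 16.4 FPKM in the NS-DADm samples, against 17.5, 21.1 and 22.4 FPKM in the WT samples. With an atrial score, the mean log2 level of these markers, as a covariate, the log2 fold change of Tnnc1 was -0.18 with an adjusted p of 0.128 (edgeR). Bmp10, like the other markers named here from the cell type lists, was chosen after its values were seen.

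Tnni3, the cardiac troponin I, did not pass the test. Its values were 7628, 6965 and 6645 FPKM in NS-DADm 1, 2 and 3, against 7793, 7786 and 7025 FPKM in WT 1, 2 and 3. NS-DADm 1 lay above WT 3, so the groups overlapped, and the lowest value was that of NS-DADm 3. The means were 7079 ± 502 FPKM in NS-DADm and 7534 ± 441 FPKM in WT (SD, n = 3 each). The log2 fold change of Tnni3 was -0.06 (95% interval -0.23 to 0.11), with an adjusted p of 0.731 (edgeR).

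Tnnt2, the cardiac troponin T, did not pass either. Its values were 7704, 6584 and 6188.5 FPKM in NS-DADm 1, 2 and 3, against 7315, 7976 and 7181 FPKM in WT 1, 2 and 3. NS-DADm 1 lay within the WT range and the other NS-DADm samples below it. The means were 6826 ± 786 FPKM in NS-DADm and 7491 ± 426 FPKM in WT (SD, n = 3 each), and the log2 fold change of Tnnt2 was -0.12 (95% interval -0.32 to 0.08, adjusted p 0.541, edgeR).

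The order of the cardiac genes was not resolved at the top. Tnnt2 and Tnni3 had nearly equal levels, with a Tnnt2 to Tnni3 ratio of 1.01, 0.945 and 0.931 in NS-DADm 1, 2 and 3 and 0.939, 1.02 and 1.02 in WT 1, 2 and 3. Tnnc1 lay below both in every sample. The Tnnc1 to Tnni3 ratio within a sample was 0.452, 0.499 and 0.485 in the NS-DADm samples, against 0.532, 0.539 and 0.538 in the WT samples. These ratios did not overlap, whereas the Tnnc1 to Tnnt2 ratio did, at 0.448, 0.527 and 0.521 in the NS-DADm samples and 0.567, 0.526 and 0.526 in the WT samples. Tnnc1 made up 18.4%, 20.4% and 20.1% of the summed FPKM of the 3 cardiac genes in NS-DADm 1, 2 and 3, against 21.5%, 21.0% and 21.0% in WT 1, 2 and 3. The ratios and this last share were chosen after their values were seen and carry no test.

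**Figure D2:**
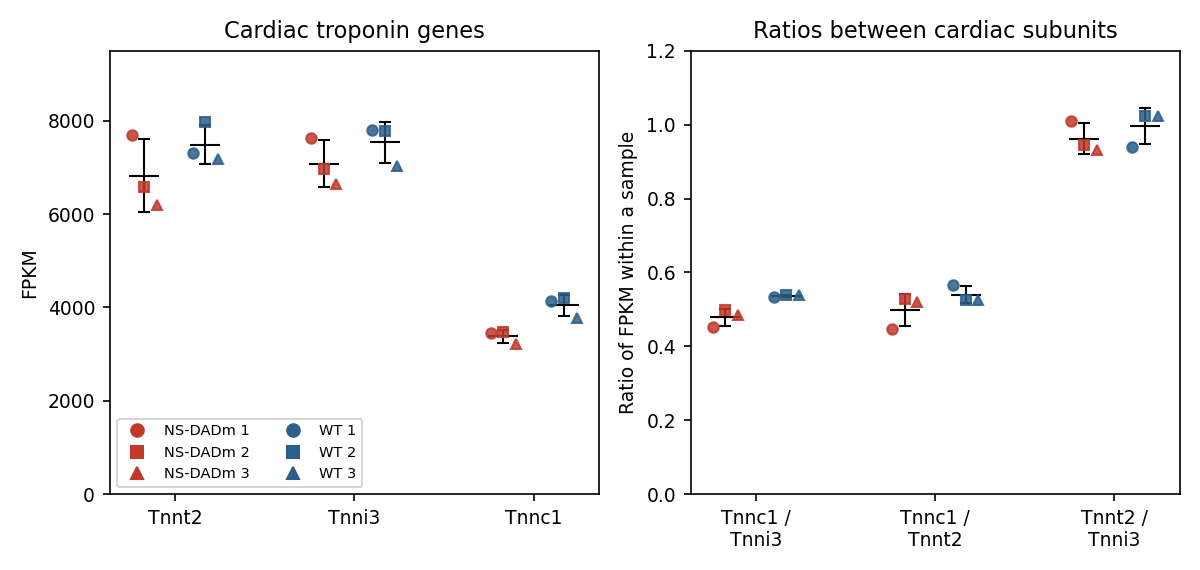
FPKM of the 3 cardiac troponin genes (left) and the ratios of their FPKM within each sample (right), with 1 marker per sample, NS-DADm in red and WT in blue. Black bars are the mean and SD of 3 samples; Tnnc1 and the Tnnc1 to Tnni3 ratio do not overlap between the groups.

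The most similar patterns across the 6 samples to Tnnc1 and to Tnni3 were sought among 11613 genes that averaged 1 FPKM or more. Similarity was the root mean square difference of log2 levels, each gene centred on its own mean. Nearest to Tnnc1 were Pcdh19, Smim20, Srpk1, Cluap1 and Sord, with differences of 0.0148 to 0.032. Pcdh19, at 1.40, 1.41 and 1.31 FPKM in the NS-DADm samples and 1.73, 1.74 and 1.56 FPKM in the WT samples, was itself below the threshold, with an adjusted p of 0.197 (edgeR). Nearest to Tnni3 were Pdcd5, Parvb, Ube2r2, Ube2m and Ctbs, with differences of 0.021 to 0.0255.

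Tnnt1, the slow skeletal troponin T, was the 1 skeletal gene with a level well above the others. It was measured at 17.3, 14.1 and 14.1 FPKM in NS-DADm 1, 2 and 3 and at 16.2, 17 and 16.97 FPKM in WT 1, 2 and 3. The NS-DADm samples held both the highest value and the lowest, and the groups overlapped. Its means were 15.2 ± 1.87 FPKM in NS-DADm and 16.7 ± 0.448 FPKM in WT (SD, n = 3 each), with a log2 fold change of -0.11 (95% interval -0.36 to 0.13, adjusted p 0.652, edgeR). Its expected counts were 206, 172 and 166 in NS-DADm and 166, 165 and 183 in WT. Its shortest transcript model, of 994 bases, took 3.59% of them in NS-DADm 1 and 6.90% in WT 1 and none in the other samples, and the models of 1030 and 1027 bases took the rest.

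In the order of genes along chromosome 7, Tnni3 and Tnnt1 are neighbours with 0 protein-coding genes between them (RefSeq, GRCm38.p6). Their levels differed widely, with Tnni3 at 6645 FPKM or more and Tnnt1 at 17.3 FPKM or less in every sample. Tnnt2 and Tnni1 have 1 gene between them on chromosome 1, and Tnnt3 and Tnni2 have 1 gene between them on chromosome 7.

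The remaining skeletal genes were close to the limit of detection. A count of 3 corresponded to 0.237 to 0.307 FPKM for Tnnt3, 0.24 to 0.31 for Tnni1, 0.394 to 0.5 for Tnni2 and 0.367 to 0.465 for Tnnc2. Across the 6 samples Tnni2 ranged from 0.94 to 2.82 FPKM, Tnnt3 from 0.26 to 1.55, Tnni1 from 0.08 to 0.59 and Tnnc2 from 0 to 0.49. Tnni2 lay above Tnni1 and Tnnc2 in every sample, while the range of Tnnt3 overlapped each of the others, and so did those of Tnni1 and Tnnc2 with each other.

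Tnni2, the fast skeletal troponin I, had expected counts of 8, 8 and 9 in NS-DADm 1, 2 and 3, against 6, 6 and 19 in WT 1, 2 and 3. WT 3 stood above the rest. Tnnt3, the fast skeletal troponin T, had 11, 19 and 3 counts in the NS-DADm samples, against 4, 4 and 6 in the WT samples, with NS-DADm 3 the lowest of all. Tnni1, the slow skeletal troponin I that precedes Tnni3 in development, had 5, 1 and 7 counts in the NS-DADm samples and 3, 3 and 6 in the WT samples. Tnnc2, the fast skeletal troponin C, had 2, 4 and 0 counts in the NS-DADm samples and 0, 2 and 2 in the WT samples. All 4 genes had groups that overlapped.

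Summed over samples and scaled by depth, Tnnt3 had a ratio of NS-DADm to WT counts of 2.06, with an exact 95% interval of 1.07 to 4.17. That interval covers counting error only. In a fit without the low-count filter the adjusted p of Tnnt3 was 0.502 (edgeR). Without NS-DADm 2 the log2 ratio of Tnnt3 counts was 0.40, against 1.04 over all samples. The ratio was 0.705 for Tnni2 (0.399 to 1.23), whose log2 ratio was -0.51 over all samples and 0.24 without WT 3. It was 0.947 for Tnni1 (0.398 to 2.27), whose log2 ratio was -0.08 over all samples, 0.40 without NS-DADm 2 and 0.30 without WT 3. These intervals are also counting error only. No fold is given for Tnnc2, which was at or below 3 counts in all samples but NS-DADm 2.

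**Figure D3:**
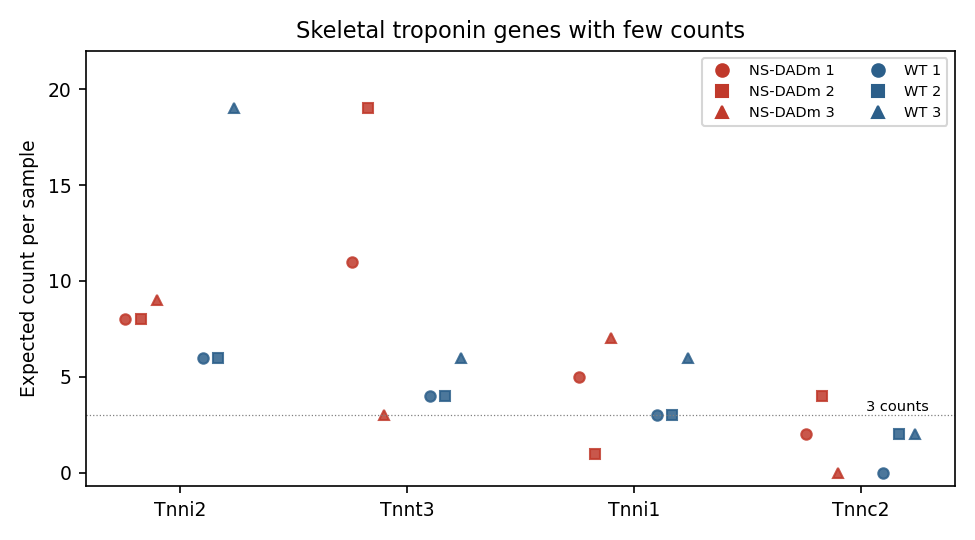
Expected counts per sample of the 4 skeletal troponin genes that fell below the low-count filter, NS-DADm in red and WT in blue. The dotted line is at 3 counts; WT 3 is the highest sample for Tnni2 at 19 counts and NS-DADm 2 the highest for Tnnt3 at 19 counts.

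Skeletal forms made up a small share of each subunit in both genotypes. The skeletal share of troponin T was 0.236%, 0.237% and 0.232% of summed FPKM in NS-DADm 1, 2 and 3, against 0.226%, 0.218% and 0.243% in WT 1, 2 and 3. For troponin I the shares were 0.0197%, 0.0162% and 0.0274% in the NS-DADm samples, against 0.0158%, 0.0168% and 0.048% in the WT samples. For troponin C they were 0.00725%, 0.0141% and 0% in the NS-DADm samples, against 0%, 0.00738% and 0.00741% in the WT samples. All 3 shares overlapped between the groups. The exact two-sided permutation test gave p-values of 0.6, 0.9 and 1 for T, I and C, each 1 after adjustment over the 3 shares, and since the smallest p that 3 against 3 samples allow is 0.1, this test could not pass the threshold. The mean difference was 0.0055 percentage points for T, -0.0058 for I and 0.0022 for C.

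Markers of skeletal fibres ranged widely in level. Of 18 such markers 17 were listed, 5 passed the low-count filter and 0 of those 5 changed (edgeR). Of the 5, 2 had an unadjusted p below 0.05 (edgeR), against 18.1% of all genes tested, and DESeq2 and limma called 0. The fast myosin heavy chains Myh1, Myh2 and Myh4 were at most 0.1 FPKM in every sample. Others were higher, with Mybpc2 at 5.8 to 8.63 FPKM. Casq1 was at 8.76, 6.12 and 13.3 FPKM in NS-DADm, against 2.78, 5.51 and 7.54 FPKM in WT (adjusted p 0.209, edgeR). Cacna1s was at 2.97, 2.87 and 2.94 FPKM in NS-DADm, against 3.82, 3.91 and 3.36 FPKM in WT (adjusted p 0.0928, edgeR). Casq1 and Cacna1s were the 2 with an unadjusted p below 0.05, and they went in opposite directions. The summed level of the list was 83.1, 48.4 and 127.8 FPKM in NS-DADm 1, 2 and 3 and 45.9, 47.1 and 91.1 FPKM in WT 1, 2 and 3, most of it Myl1, an alkali light chain. Their part in the skeletal troponin counts was not tested.

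Tnnt2 is spliced into several forms, and 5 of its 9 listed transcript models differ in length by sums of 3 short exons. Of the others, 3 do so once 4 bases are taken off, and 1 matches no sum. The exons are shown in capitals with 15 bases of the flanking exons in lower case, because most lengths of the models differ by theirs (GENCODE M21).
Tnnt2 12-base exon: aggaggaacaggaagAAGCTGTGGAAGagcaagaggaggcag
Tnnt2 30-base exon: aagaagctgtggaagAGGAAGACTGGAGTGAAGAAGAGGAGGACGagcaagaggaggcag
Tnnt2 9-base exon: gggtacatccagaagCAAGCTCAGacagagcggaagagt
Each exon is a multiple of 3 bases, so its inclusion keeps the reading frame. Of the 30 bases of the longest, 26 are G or A. This exon is the one skipped as the heart matures, and its codons are rich in acidic residues.

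The deposited tables assigned most Tnnt2 counts to 4 models. The model of 1199 bases took 30.7%, 33.0% and 28.4% of them in NS-DADm 1, 2 and 3, against 37.8%, 51.3% and 37.3% in WT 1, 2 and 3. The model of 1150 bases took 39.1%, 33.5% and 38.7% in the NS-DADm samples, against 29.3%, 11.8% and 29.6% in the WT samples. Both differences were without overlap, and WT 2 stood apart from the other WT samples in both. These shares are parts of the same total, so the differences are not independent of each other. How common such separation is among all transcripts was not counted. The model of 1190 bases took 16.3%, 17.7% and 19.1% in the NS-DADm samples and 17.1%, 16.95% and 16.8% in the WT samples. The model of 1211 bases took 9.02%, 10.1% and 8.33% in the NS-DADm samples and 9.80%, 12.95% and 10.7% in the WT samples. The mean share of the 1150-base model was higher in NS-DADm by 13.5 percentage points, and by 7.68 points without WT 2. These shares were picked after their values were seen and carry no test of their own.

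In the transcript fit, 0 of the 12 tested troponin transcripts changed. An unadjusted p below 0.05 was found for 3 of them and for 1961 of all transcripts tested, or 11.2%. Past the adjusted threshold were 17 of the 17498 transcripts tested, or 0.0972% (edgeR, adjusted over all tested transcripts). The log2 fold change was 0.57 for the 1150-base model (adjusted p 0.606) and -0.58 for the 1199-base model (adjusted p 0.391). For the 1232-base model it was -1.24 (adjusted p 0.323), at 1.92, 4.33 and 5.25 FPKM in NS-DADm and 8.73, 8.70 and 10.3 FPKM in WT. Its groups did not overlap, and the share of all transcripts without overlap was not counted. DESeq2 called this model, at an adjusted p of 0.0323, and the single Tnnc1 transcript, at 0.0191, among 858 transcripts, or 4.9% of those tested, and limma called 0 troponin transcripts. How reads were split among near-identical models depends on the authors' estimator, which the sources used here do not name.

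By length, with the 4 bases allowed, 4 models were longer by 12 bases, 3 by 30 and 4 by 9. The models longer by 30 bases took 0.109%, 0.107% and 0.172% of Tnnt2 counts in NS-DADm 1, 2 and 3, against 0.174%, 0.264% and 0.245% in WT 1, 2 and 3. The models longer by 12 bases took 9.87%, 10.9% and 9.05% in the NS-DADm samples and 10.4%, 13.7% and 11.6% in the WT samples. The models longer by 9 bases took 44.5%, 48.7% and 42.0% in the NS-DADm samples and 53.4%, 71.0% and 53.4% in the WT samples. The pairing of models with transcripts in GENCODE gave other counts, with the 12-base exon in 5 models, the 30-base exon in 4 and the 9-base exon in 6. That pairing gave the same transcript to models of different length, such as those of 1199 and 1190 bases and those of 1232 and 1220 bases. It therefore cannot tell the exons of such models apart. For the 30-base exon the difference is the 1150-base model, which matched no length, and whose paired transcript starts further downstream and holds the 30-base and the 9-base exon. By that pairing, tried after the data were seen, the models with the 30-base exon took 39.2%, 33.6% and 38.9% of Tnnt2 counts in the NS-DADm samples, against 29.5%, 12.1% and 29.8% in the WT samples, which turns the direction of the share by length. By the same pairing the models with the 9-base exon took 99.892%, 99.894% and 99.828% in NS-DADm 1, 2 and 3. They took 99.825%, 99.735% and 99.755% in WT 1, 2 and 3, so the lower share by length in NS-DADm was not kept. No direction is therefore given for the 30-base or the 9-base exon.

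**Figure D4:**
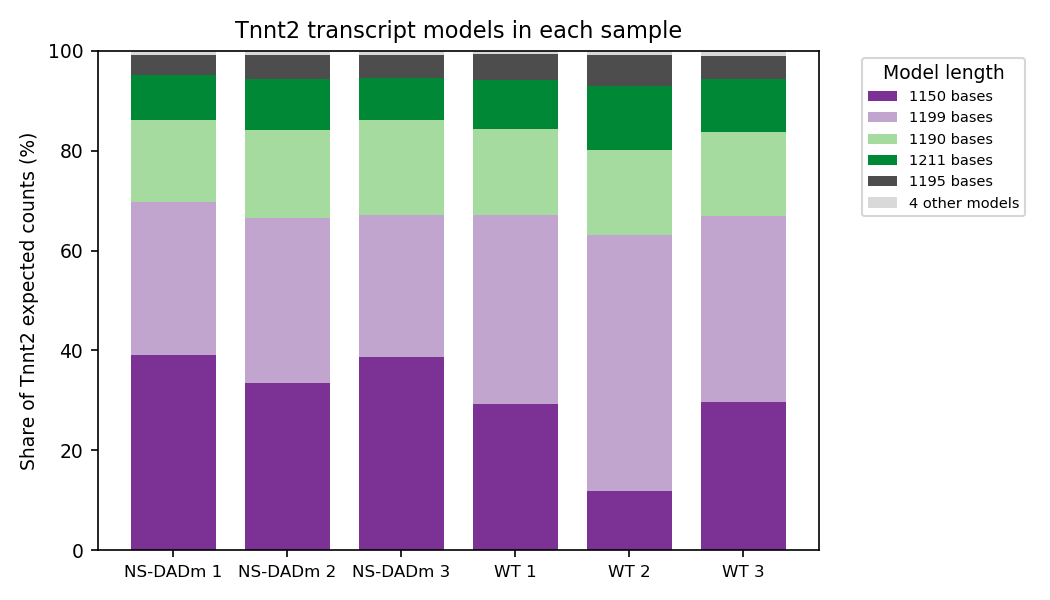
Share of Tnnt2 expected counts in the largest transcript models, in percent, as stacked bars for each sample, with NS-DADm left of WT. The smallest models are pooled in light grey. The 1150-base model takes 33.5% to 39.1% in the NS-DADm samples and 11.8% to 29.6% in the WT samples.

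Genes related to troponin were read as lists, with no test of a list, each set against a median log2 fold change of -0.0031 over all genes. Of 12 thin filament partners, 3 rose, 1 fell and 8 did not pass (edgeR), with a median of 0.15. Over all genes 1.79% rose and 1.41% fell. An unadjusted p below 0.05 was found for 6 of the 12 (edgeR), against 18.1% of all genes tested. DESeq2 called 4 of the 12 (4.25% of all genes tested), with Tmod1 in place of Tpm2 (adjusted p 0.0581). With limma 1 was called, Tpm1, with adjusted p-values of 0.0705 to 0.0764 for Acta1, Lmod2 and Tpm2. Tpm1, the major tropomyosin of the heart on which troponin T sits, fell to 6251, 7083 and 6532 FPKM in NS-DADm, against 9549, 9488 and 9233 FPKM in WT, without overlap (log2 fold change -0.48, adjusted p 0.00647). It kept its call in 14 of 14 alternative fits. Acta1, skeletal actin, rose to 376.4, 261 and 748 FPKM in NS-DADm, against 192, 138 and 155 FPKM in WT, without overlap (log2 fold change 1.54, adjusted p 0.0252). Without NS-DADm 1, WT 1, WT 2 or WT 3 in turn, Acta1 no longer passed, with adjusted p-values of 0.0544 to 0.123.

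Tpm2, beta-tropomyosin, rose to 28.3, 18.0 and 22.7 FPKM in NS-DADm, against 6.61, 6.08 and 15.2 FPKM in WT (log2 fold change 1.48, adjusted p 0.0366). Lmod2, leiomodin that elongates actin filaments, rose to 533.7, 687.9 and 550.4 FPKM in NS-DADm, against 427.5, 456.3 and 440.6 FPKM in WT (log2 fold change 0.45, adjusted p 0.0425). The groups of Tpm2 and of Lmod2 were without overlap, as were those of Tpm1 and Acta1. Separation of this kind held for 23.4% of the genes in the fit. Tpm2 no longer passed without NS-DADm 1, NS-DADm 3, WT 1 or WT 2 in turn (0.0652 to 0.137), and its log2 fold change was 2.11 without WT 3. Lmod2 no longer passed without NS-DADm 1, NS-DADm 2, WT 1, WT 2 or WT 3 in turn (0.053 to 0.138). Actc1, cardiac actin and the most abundant partner, did not pass.

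**Figure D5:**
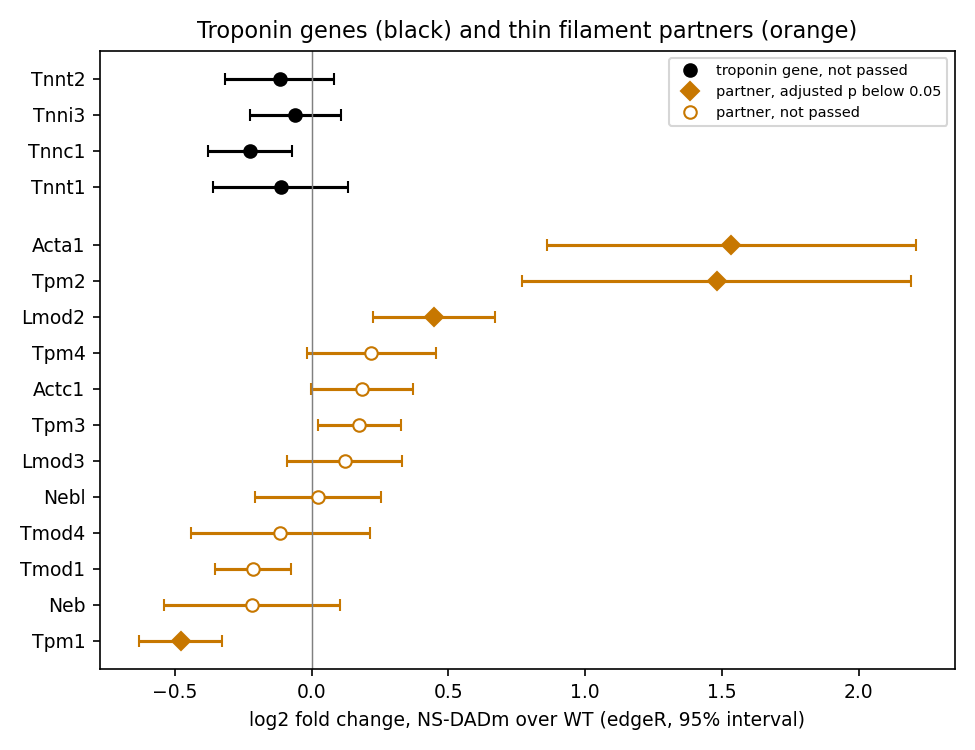
Log2 fold change of NS-DADm over WT with its 95% interval (edgeR) for the 4 tested troponin genes in black and the 12 thin filament partners in orange. Filled diamonds passed the adjusted threshold of 0.05: Acta1, Tpm2 and Lmod2 lie to the right of 0 and Tpm1 to the left.

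Of 9 sarcomere isoforms that mark the developing heart, 2 rose and 0 fell (edgeR), with a median log2 fold change of 0.75, against 1.79% of all genes that rose. An unadjusted p below 0.05 was found for 3 of the 9 (edgeR), against 18.1% of all genes tested. DESeq2 called 1, Acta1, and limma called 0. Those that rose were Acta1 and Tpm2, already counted among the partners. The most abundant member over the 6 samples, Myl4, is an atrial light chain, although Myl7 averaged higher in WT. Both Myl4 and Myl7 are also among the atrial markers, which differed between libraries. Their log2 fold changes were 1.12 (SE 1.15) and 0.66 (SE 1.12), and both did not pass (edgeR). Myl4 had 603.6, 82.6 and 1029 FPKM in NS-DADm 1, 2 and 3, against 51.4, 10.6 and 735.5 FPKM in WT 1, 2 and 3. Tnni1, the troponin of this developmental group, stayed at 1 to 7 counts.

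Of 10 kinases that phosphorylate troponin I, 0 changed in either direction in edgeR, DESeq2 or limma and 3 had an unadjusted p below 0.05 (edgeR). Their median log2 fold change was 0.04, and Prkaca, the catalytic subunit of protein kinase A, was the most abundant. Of 10 regulators of troponin T splicing, 0 changed with any of these tools and 1 had an unadjusted p below 0.05 (edgeR). Their median was 0.0028, and Rbpms was the most abundant. Of 12 transcription factors known to act at troponin promoters, 0 changed in edgeR or limma, 1 was called by DESeq2 (Tead1), and 5 had an unadjusted p below 0.05 (edgeR). Their median was -0.07, and Nkx2-5 was the most abundant. Over all genes tested, 18.1% had an unadjusted p below 0.05 (edgeR) and DESeq2 called 4.25%.

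The promoters of Tnnc1 and Tnnt2 are shown because Tnnc1 was the member with the smallest p and because Tnnt2 is the gene of this family best known for a proximal M-CAT element, described in the chicken. Each is the 250 bases before the start of the gene (RefSeq, GRCm38.p6), 5′ to 3′ on the strand of the gene, and capitals mark motif matches. RefSeq gives a second start for Tnnt2, at whose window, not printed, the M-CAT element and the GATA sites had 0 matches and the E-box 1.
Tnnc1, chr14:31208062-31208311, plus strand: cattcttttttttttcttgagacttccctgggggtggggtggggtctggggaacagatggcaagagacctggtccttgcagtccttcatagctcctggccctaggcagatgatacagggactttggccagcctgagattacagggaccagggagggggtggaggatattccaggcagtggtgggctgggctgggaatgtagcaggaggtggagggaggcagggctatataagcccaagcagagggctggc
Tnnt2, chr1:135836084-135836333, plus strand: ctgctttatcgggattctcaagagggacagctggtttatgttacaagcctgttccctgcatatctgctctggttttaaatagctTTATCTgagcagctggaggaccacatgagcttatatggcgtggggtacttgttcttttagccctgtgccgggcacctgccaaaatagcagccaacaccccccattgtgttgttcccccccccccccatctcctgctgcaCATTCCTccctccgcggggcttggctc
Each window was searched on both strands for the M-CAT element (CATTCCT), the TATA box (TATAAA), a pair of GATA sites (AGATAA and TGATAA), a nuclear receptor half-site (AGGTCA), the E-box (CANNTG) and the MEF2 consensus. In the Tnnt2 window shown, the M-CAT element began 27 bases before the start, and the first GATA site lay on the opposite strand 166 bases before it. E-boxes, not capitalised, were found 2 times in the Tnnc1 window, which held no exact match to the other motifs, and 4 times in that of Tnnt2. The Tnnc1 window does hold the run tatataag near its end, which a search for the exact letters TATAAA did not count. Of 32851 promoters, 4.51% held the M-CAT element, 12.4% the TATA box, 9.99% and 7.94% the first and second GATA sites, 14% the half-site, 66.2% an E-box and 2.92% the MEF2 consensus. Tead1, whose product binds M-CAT elements, was named after its values were seen. It had 31.7 ± 2.28 FPKM in NS-DADm and 27.0 ± 1.79 FPKM in WT (SD, n = 3 each), with an adjusted p of 0.0983 (edgeR).

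Markers of the labelled tissue were high, as 8 cardiomyocyte genes summed to 44002 to 50655 FPKM in NS-DADm and to 43238 to 49669 FPKM in WT. Of these 8 genes, 0 rose and 1 fell (edgeR), against 1.79% and 1.41% of all genes tested. The gene that fell was Mybpc3, a thick filament protein named after its values were seen, with a log2 fold change of -0.26 and an adjusted p of 0.0366 (edgeR). An unadjusted p below 0.05 was found for 4 of the 8 (edgeR), against 18.1% of all genes tested. Of these, Myh6 and Myh7 were higher in NS-DADm and Ryr2 and Mybpc3 lower. DESeq2 called 2, Mybpc3 and Ryr2, against 4.25% of all genes tested. Each limma setting called 1, against 2.07% and 2.03%. Of the other marker lists, 0 of 11 atrial, 0 of 6 smooth muscle, 0 of 2 brown fat and 0 of 2 erythroid genes changed in edgeR or limma. Those with an unadjusted p below 0.05 numbered 1, 2, 2 and 2 in that order (edgeR), against 18.1% of all genes tested. DESeq2 called 1, the atrial marker Kcnj5, against 4.25% of all genes tested. Summed brown fat markers were 34.8, 29.2 and 63.3 FPKM in NS-DADm 1, 2 and 3, against 29.2, 27.4 and 23.3 FPKM in WT 1, 2 and 3. Most of each sum was Cidea, at 22.7 to 39.7 FPKM. Ucp1 was 1.69, 0 and 23.6 FPKM in NS-DADm 1, 2 and 3, against 0, 0 and 0.68 FPKM in WT 1, 2 and 3. The part of all these marker lists in the troponin values was not tested.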

How the data were processed

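The 6 samples each had a gene table and a transcript table. The authors deposited expected counts and FPKM in both, as the headers name them. HISAT, an aligner, is named in the submitters' processing notes. Its version is not given in the sources used here, nor are the estimator, build and annotation. Per the file headers, FPKM is the expected count scaled by length and library reads. The tables list only genes of at least 0.01 FPKM, so a gene not listed in a sample was taken as 0. The 1 row with no gene symbol was left out. Counts set the precision: a gene at 3 counts is near the limit. Intervals on summed counts cover counting error only.

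Expected counts were rounded and compared with edgeR 4.0.16 in R 4.3.3 (quasi-likelihood test, TMM, default low-count filter, Benjamini-Hochberg adjustment over all tested features, threshold 0.05). Intervals of fold changes used the t quantile of the fit. The design compares NS-DADm with WT without a block, since the labels state no pairing. Shares used an exact permutation test (scipy 1.17.1). The fits were checked on simulated counts. Alternatives were RLE size factors, no filter, a mean FPKM of at least 1, a replicate block, DESeq2 1.42.0, limma 3.58.1 on log2(FPKM + 1) and on log2(FPKM + 0.1), an atrial covariate and each sample left out. The alternatives for the Tnnc1 share and the 1150-base Tnnt2 model were chosen after the data were seen.

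The members and lists were chosen with earlier results of these data known. All 8 members are named, with the called members (at most 4) and the most abundant member of each list, and the 5 most similar genes for Tnni3 and the member of smallest p. Of 17891 identifiers, 17852 matched RefSeq, all 8 members among them. Tnnt3 and Tnni2 had no promoter entry.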

Additional observations from a re-analysis of the deposited data

How the results depend on the processing

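Tnnc1, Tnnt2, Tnni3 and Tnnt1 were lower in NS-DADm in 14 of 14 alternatives each. Tnnt2, Tnni3 and Tnnt1 passed the threshold in 0 of them. Tnnc1 passed in 2, at a log2 fold change of -0.2262 with a replicate block (adjusted p 0.0183) and -0.225 with DESeq2 (adjusted p 0.0371); its adjusted p ranged from 0.0183 to 0.35. Its single transcript did not pass with the block (adjusted p 0.343). Genes changed, 420 in all, numbered 895 with the replicate block, 272 and 267 with limma at pseudocounts of 1 and 0.1, and 117 to 382 with 1 sample left out: 117 without WT 2, 149 without WT 1, 181 without NS-DADm 1 and 273 without NS-DADm 2. Transcripts changed, 17 in all, numbered 2 with the replicate block, 858 with DESeq2, 34 and 39 with limma, and 3 to 7 with 1 sample left out. The cause of these differences was not tested. Deviations of same-numbered samples correlated at -0.0724, 0.328 and 0.402, and NS-DADm 1 correlated best with WT 3 (0.133), so the numbers were not taken as a pairing. The skeletal shares of troponin T, I and C kept their direction in 7, 7 and 6 of 8 alternatives, Tnnt3 in 7 of 7, Tnni2 in 7 of 8 and Tnni1 in 5 of 7. Depth limits Tnnt3, Tnni1, Tnni2 and Tnnc2, whose sums were 33, 13, 25 and 6 counts in NS-DADm and 14, 12, 31 and 4 in WT, so differences within their counting intervals were not detectable at this depth.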
